A study of Mus musculus with 15 samples.

Results

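The response of mouse macrophages to cleavage fragments of the amphibole tremolite was compared with the untreated state of the same cells. The data were taken from a study of 15 RNA libraries in 5 groups of 3. The cells were MPI cells, a non-transformed macrophage line named after the Max Planck Institute, which derives from the fetal liver of female C57BL6/J mice and renews itself as long as it is given the growth factor GM-CSF. The labels list no engineered allele in any group, and all were grown in the same GM-CSF medium. The 3 exposed libraries (tremolite fragments 1 to 3) came from cells given 60 µg/cm² of non-asbestiform tremolite cleavage fragments for 24 h, and the 3 control libraries (untreated 1 to 3) came from cells for which the labels list no agent. Libraries were chosen by these labels, so 6 of the 15 entered the main comparison. To place it, 3 libraries after 5 µg/cm² of tremolite asbestos and 3 after 40 µg/cm² of riebeckite cleavage fragments were used. A further 3 after 9 µg/cm² of riebeckite asbestos entered the fit and the plots. Doses were set by the study to equal surface area, so mass differs between particles. The titles call the controls untreated, while a shared description speaks of a vehicle control. Whether a group's 3 libraries are separate cultures is not stated, so p-values reflect sample-to-sample spread that may be purely technical.

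Tremolite occurs in an asbestiform habit, with long thin fibres, and as cleavage fragments, which are thicker pieces broken along crystal planes. Macrophages of the lung take up inhaled mineral particles into phagosomes that fuse with lysosomes. Particles that damage the lysosome or cannot be fully engulfed are known to trigger oxidative stress, NF-kB activation and the release of interleukin-1. MPI cells are used as a model of alveolar macrophages, which depend on GM-CSF.

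Expression was given as FPKM, a read count scaled for transcript length and library size, for 10653 genes. The depth behind these values is unknown. Those reaching 0.5 FPKM in 3 or more of the 15 libraries, 10616 in number, were tested on log2(FPKM + 1) with limma. All adjusted p-values are Benjamini-Hochberg values over these genes with a threshold of 0.05, and genes past it are said to rise or fall. Fold changes are log2 differences on the log2(FPKM + 1) scale, tremolite fragments minus the group they are set against, a scale that shrinks the differences of weakly expressed genes. Spearman's rho across genes was 0.9888 to 0.9908 among the fragment libraries, 0.9905 to 0.9918 among the untreated libraries and 0.9779 to 0.9807 between them. Mitochondrially encoded genes held 8.42 ± 0.281% of the summed FPKM after fragments and 8.65 ± 0.181% in untreated cells (SD, n = 3 each, exact permutation test, 2-sided, p = 0.5, smallest possible 0.1).

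Tremolite fragments changed many genes by small amounts and few by large ones. After fragments 1328 genes were higher and 1592 lower than in untreated cells, which is 27.5% of the genes tested (12.5% higher and 15% lower). Among these the median absolute log2 fold change was 0.28, and 68 genes rose and 24 fell by at least 1. The median over all genes tested was -0.02. The 3 fragment and 3 untreated libraries did not overlap for 2887 of the 2920 genes that passed the test. They also did not overlap for 45.1% of all genes tested, so lack of overlap is common here. The share of higher genes among those that passed was 45.5%, and 53% with TMM rescaling of the libraries.

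**Figure D1:**
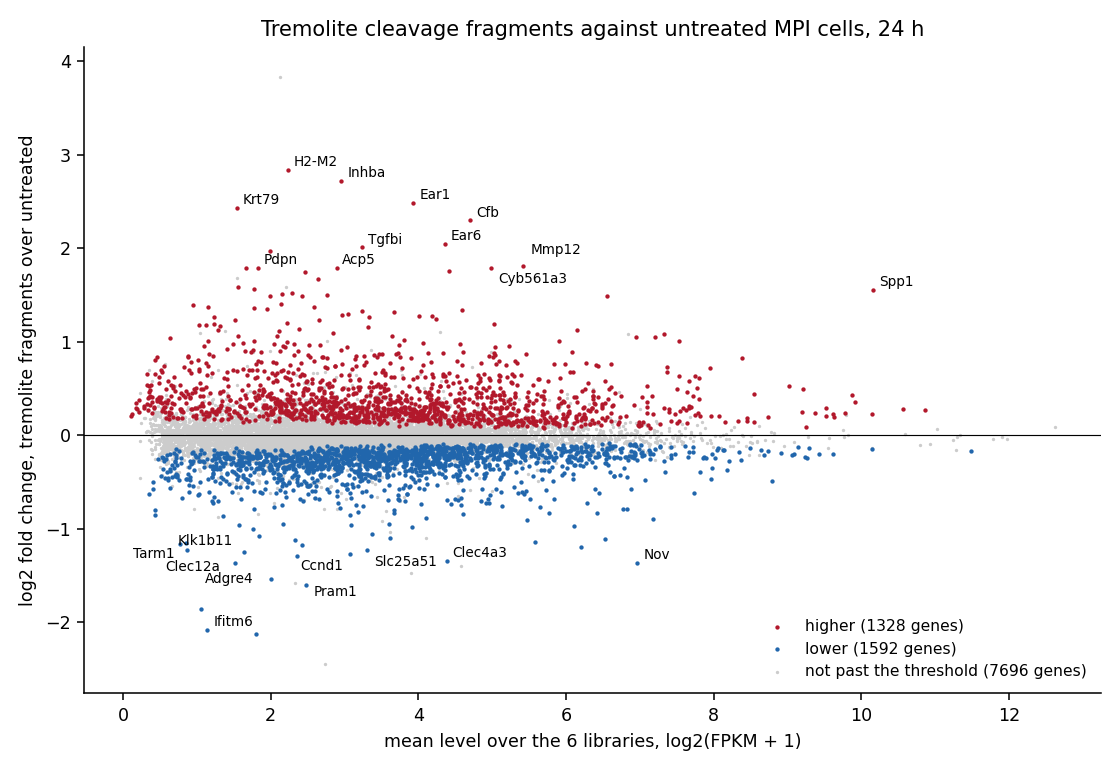
Each point is 1 of the 10616 genes tested, with its mean log2(FPKM + 1) over the 6 libraries on the x axis and the log2 fold change of tremolite fragments over untreated cells on the y axis. Red points were higher after fragments (1328 genes), blue points lower (1592 genes), grey points did not pass the test, and some genes with large changes are labelled.

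The largest rise was that of H2-M2, which encodes a non-classical class I histocompatibility antigen (ENSMUSG00000016283.13, chromosome 17, 37480851 to 37483552, GRCm38). H2-M2 stood at 12.5, 10.9 and 11.3 FPKM in the 3 fragment libraries, against 0.778, 0.70 and 0.789 FPKM in untreated cells. Every fragment library was thus above every untreated library by a wide margin, and the log2 fold change was 2.84 (SE 0.0797, limma adjusted p = 1.87e-10). Inhba encodes the subunit of activin A, a secreted factor of the TGF-beta family (ENSMUSG00000041324.14, chromosome 13, 16011851 to 16031621). Inhba was at 19.8, 19.7 and 17.4 FPKM after fragments, against 2.09, 1.75 and 2.24 FPKM in untreated cells, without overlap (log2 fold change 2.72, SE 0.0840, adjusted p = 2.08e-10). Krt79, a keratin listed among alveolar macrophage transcripts, averaged 5.76 ± 0.170 FPKM after fragments and 0.255 ± 0.0198 FPKM in untreated cells (2.43, adjusted p = 1.87e-10). Pdpn, the mucin-like glycoprotein podoplanin, averaged 5.63 ± 0.639 FPKM after fragments and 0.923 ± 0.270 FPKM in untreated cells (1.79, adjusted p = 6.58e-08). The most abundant transcript among the strong rises was Spp1, which encodes osteopontin, with 2038, 1878 and 1952 FPKM after fragments, against 702, 665 and 631 FPKM in untreated cells (1.55, SE 0.0477, adjusted p = 2.08e-10). The fragment values of Spp1 lay close together, and the lowest of them exceeded the highest untreated one.

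The eosinophil-associated ribonucleases Ear1 and Ear6 belong to a family of near-identical genes whose reads can be split uncertainly. Ear1 averaged 35.2 ± 2.59 FPKM after fragments and 5.45 ± 0.446 FPKM in untreated cells (2.49, adjusted p = 1.01e-09). Ear6 averaged 40.9 ± 3.04 FPKM after fragments and 9.13 ± 0.236 FPKM in untreated cells (2.04, adjusted p = 2.56e-10). Their relatives Ear2 and Ear10 did not pass the test, with log2 fold changes of -0.03 (adjusted p = 0.759) and -0.12 (adjusted p = 0.599). Cyb561a3, a lysosomal iron reductase of the cytochrome b561 family, averaged 57.6 ± 1.28 FPKM after fragments and 15.9 ± 0.860 FPKM in untreated cells (1.79, adjusted p = 1.90e-10).

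Among the strong falls, Ifitm6, of the interferon-induced transmembrane family (ENSMUSG00000059108.4, chromosome 7, 141015699 to 141017924), was at 0.0769, 0.0685 and 0.0685 FPKM after fragments, against 3.80, 3.85 and 3.03 FPKM in untreated cells (log2 fold change -2.08, SE 0.0687, adjusted p = 2.56e-10). It was thus near the bottom of the scale in every fragment library and above 3 FPKM in every untreated library. Nov, a secreted matricellular protein also called CCN3, was abundant in both groups and fell to 76.8 ± 0.553 FPKM after fragments, against 199.8 ± 6.03 FPKM in untreated cells (-1.37, adjusted p = 1.99e-10). Adgre4, an adhesion receptor related to F4/80, fell by 1.54 (adjusted p = 1.67e-07). Pram1, an adaptor protein of myeloid cells, had a log2 fold change of -1.60 (adjusted p = 0.00246) and shares 87.5% of its exon bases with the overlapping transcript Gm20507. Tarm1, an activating immunoglobulin-like receptor, averaged 0.204 ± 0.161 FPKM after fragments and 1.81 ± 0.232 FPKM in untreated cells (-1.23, adjusted p = 6.66e-07). Klk1b11, a kallikrein-related peptidase, had a log2 fold change of -1.25 (adjusted p = 2.71e-04). The fall of Slc25a51, a mitochondrial NAD carrier (-1.23, adjusted p = 0.0307), did not pass when certain libraries were left out. Its adjusted p was 0.0774 without fragment library 1, 0.0805 without fragment library 2, 0.0560 without fragment library 3, 0.0891 without untreated library 2 and 0.0828 without untreated library 3.

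**Figure D2:**
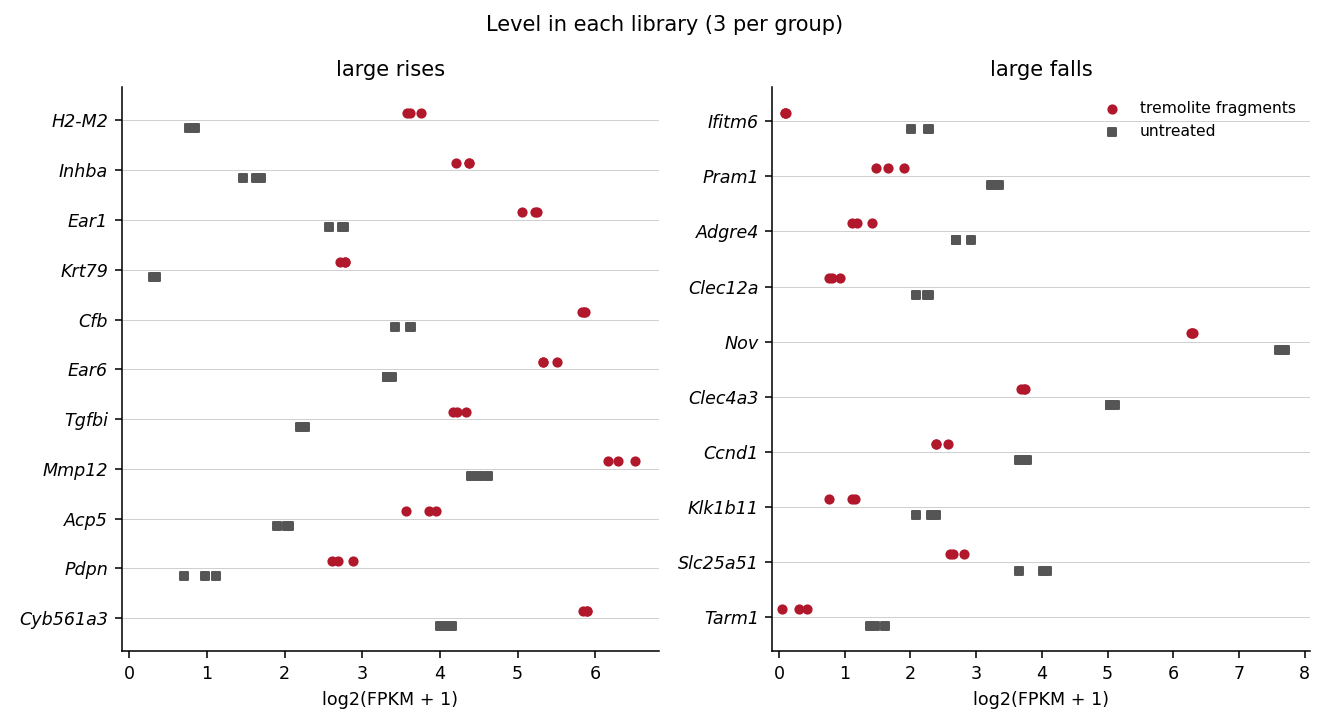
Levels of 11 genes with large rises (left) and 10 with large falls (right) in each of the 3 tremolite fragment libraries (red circles) and 3 untreated libraries (grey squares), on the log2(FPKM + 1) scale. For every gene shown the groups do not overlap, as the rule that chose them requires, and Ifitm6 lies near 0 after fragments.

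The libraries kept the transcripts of macrophages. All 12 general macrophage markers were measured, with a summed level of 6295 to 6601 FPKM after fragments and 6379 to 6907 FPKM in untreated cells. Of these 4 rose and 4 fell, and Lyz2, which encodes lysozyme, did not pass the test (-0.04, adjusted p = 0.684). Csf1r, the receptor of the growth factor M-CSF, rose by 0.29 (adjusted p = 2.15e-05). Fcgr1 fell to 15.5 ± 0.499 FPKM after fragments, against 25.7 ± 1.13 FPKM in untreated cells (-0.70, adjusted p = 2.84e-04). The 4 falls (Fcgr1, Adgre1, Tyrobp and Mpeg1) became 2 when any 1 of the 6 libraries was left out.

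Genes listed here as typical of alveolar macrophages were mostly higher after fragments. Of 31 tested, 20 rose and 5 fell, with a median log2 fold change of 0.29. Siglecf, the sialic acid receptor that marks mouse alveolar macrophages, was at 38.8, 37.4 and 38.9 FPKM after fragments, against 9.5, 11.1 and 11.5 FPKM in untreated cells (1.76, SE 0.0681, adjusted p = 1.06e-09). Its levels were thus over 3 times as high in every fragment library as in any untreated one. The integrin gene Itgax (CD11c) rose by 0.46 (adjusted p = 1.55e-07), and Pparg, the transcription factor needed for alveolar macrophage identity, by 0.34 (adjusted p = 6.70e-05). Fabp4, a fatty acid binding protein and target of that factor, went the other way, with 48.3 ± 3.25 FPKM after fragments and 95.7 ± 1.81 FPKM in untreated cells (-0.97, adjusted p = 1.34e-07). Some members of the list are also listed here as cytokines, receptors or proteases. The list was chosen with earlier results of these data known, so its counts are a description and not a test.

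Markers of other cell types were tested in small numbers. None of the 13 mast cell and basophil, 14 lymphocyte and 14 hepatocyte and erythroid markers were among the genes tested, and 3 of 17 markers of fibroblasts, epithelium and endothelium were. Of 18 neutrophil markers 5 were tested and 4 of these rose (Cxcr2, Mmp8, Fpr2 and Fpr1), while S100a8 did not pass the test (0.02, adjusted p = 0.910). The summed level of the 5 was 283.7 to 293.1 FPKM after fragments and 223.9 to 229.9 FPKM in untreated cells. Of 12 osteoclast markers 6 were tested, of which 4 rose, led by Acp5, the tartrate-resistant acid phosphatase, and 1 fell, the RANK receptor gene Tnfrsf11a (-0.21, adjusted p = 0.00454). Acp5 was at 14.4, 10.8 and 13.4 FPKM after fragments, against 3.17, 3.08 and 2.72 FPKM in untreated cells (1.79, adjusted p = 7.96e-09). The summed osteoclast level was 1902 to 2043 FPKM after fragments and 1514 to 1622 FPKM in untreated cells, most of it from Ctsk. Of 13 dendritic cell markers 5 were tested, with 1 higher, Clec9a (0.62, adjusted p = 2.84e-05), and 1 lower, Irf4 (-0.56, adjusted p = 4.71e-06). The higher count was 2 without untreated library 1, and the lower count was 2 without fragment library 2 or untreated library 3. Their summed level was 142.2 to 158.3 FPKM after fragments and 111.5 to 115.3 FPKM in untreated cells. In bulk libraries fewer cells of a kind and less RNA per cell cannot be told apart, and the part of such cells in the results was not tested.

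Genes of DNA replication fell together. Of 48 tested, 36 fell and 1 rose, with a median log2 fold change of -0.31. All 6 genes of the MCM2 to MCM7 complex, the helicase that unwinds DNA at replication forks, fell, by 0.23 to 0.48. Mcm6 was at 18.5, 19.7 and 19.2 FPKM after fragments, against 26.9, 27.5 and 27.0 FPKM in untreated cells (-0.48, SE 0.0355, adjusted p = 4.24e-07). The fragment values of Mcm6 spanned about 1 FPKM, well below the untreated ones. Mcm5 was at 18.8, 18.7 and 18.6 FPKM after fragments, against 24.4, 25.8 and 25.8 FPKM in untreated cells (-0.42, adjusted p = 4.76e-07). Mcm2 fell to 8.85 ± 0.308 FPKM after fragments, against 11.4 ± 0.476 FPKM in untreated cells (-0.33, adjusted p = 1.75e-04), and Mcm3 by 0.33 (adjusted p = 0.00241). Rrm2, the regulated subunit of ribonucleotide reductase, which makes deoxynucleotides, averaged 12.9 ± 0.431 FPKM after fragments and 19.7 ± 0.693 FPKM in untreated cells (-0.58, adjusted p = 1.41e-06). Pcna, the sliding clamp of the polymerases, fell least among the members named here, to 73.1 ± 0.627 FPKM after fragments, against 79.7 ± 1.48 FPKM in untreated cells (-0.12, adjusted p = 0.00912). The member that rose was Dnmt1, the maintenance DNA methyltransferase (0.14, adjusted p = 0.0196), and it no longer passed without untreated library 1 or 2 or fragment library 2 or 3.

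Promoters of the MCM genes are shown because E2F factors are textbook regulators of replication genes and these genes moved as a group. Windows of 300 bases, from 250 before to 50 after the annotated start, were taken from RefSeq (GRCm38.p6), and capitals mark matches to the E2F motif GGCGNGAA on either strand, where N is any base. The windows are those of Mcm2 (chr6:88898731-88899030, minus strand), Mcm3 (chr1:20820263-20820562, minus strand), Mcm5 (chr8:75109259-75109558, plus strand), Mcm6 (chr1:128359656-128359955, minus strand) and Mcm7 (chr5:138171834-138172133, minus strand). Each is written 5′ to 3′ on the strand of its gene.
Mcm2: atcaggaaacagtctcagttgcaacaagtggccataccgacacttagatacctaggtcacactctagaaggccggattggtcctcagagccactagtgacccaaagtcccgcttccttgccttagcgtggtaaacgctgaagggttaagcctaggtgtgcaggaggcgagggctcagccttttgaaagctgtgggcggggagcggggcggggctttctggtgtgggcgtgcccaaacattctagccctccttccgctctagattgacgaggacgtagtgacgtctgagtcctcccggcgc
Mcm3: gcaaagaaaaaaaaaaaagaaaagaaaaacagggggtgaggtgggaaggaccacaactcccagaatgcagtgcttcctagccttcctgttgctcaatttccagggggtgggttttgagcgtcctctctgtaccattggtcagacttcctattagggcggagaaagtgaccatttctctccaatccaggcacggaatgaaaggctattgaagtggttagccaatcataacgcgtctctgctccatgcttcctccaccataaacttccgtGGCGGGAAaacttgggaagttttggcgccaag
Mcm5: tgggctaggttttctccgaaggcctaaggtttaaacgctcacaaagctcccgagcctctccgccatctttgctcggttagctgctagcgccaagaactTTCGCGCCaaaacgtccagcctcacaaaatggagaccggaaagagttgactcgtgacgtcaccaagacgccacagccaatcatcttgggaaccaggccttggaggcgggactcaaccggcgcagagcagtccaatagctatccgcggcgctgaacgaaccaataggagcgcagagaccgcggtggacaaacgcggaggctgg
Mcm6: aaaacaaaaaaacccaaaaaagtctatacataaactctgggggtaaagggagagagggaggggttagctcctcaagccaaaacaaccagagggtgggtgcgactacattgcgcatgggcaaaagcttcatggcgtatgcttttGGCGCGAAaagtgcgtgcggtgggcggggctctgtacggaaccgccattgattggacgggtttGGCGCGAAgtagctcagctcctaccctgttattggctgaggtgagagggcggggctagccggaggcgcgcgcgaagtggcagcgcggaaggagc
Mcm7: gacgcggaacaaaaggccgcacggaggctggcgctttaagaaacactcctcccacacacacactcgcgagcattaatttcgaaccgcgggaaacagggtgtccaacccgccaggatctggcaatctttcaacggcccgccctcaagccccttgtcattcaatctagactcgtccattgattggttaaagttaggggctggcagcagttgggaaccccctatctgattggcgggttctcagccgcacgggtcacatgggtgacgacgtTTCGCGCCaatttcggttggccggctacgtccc
The motif was found in 4 of these 5 windows, with a pair of matches in Mcm6 that begin 107 and 44 bases before the start. In Mcm2 these letters do not occur. Over the whole list it was found in 12 of 39 windows (30.8%), and 11 of those 12 genes fell. Over all 8378 tested genes with a window it was found in 6.96%. A match describes the sequence and is not shown to be a site.

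Of 46 genes of mitosis tested, 8 fell and 2 rose, with a median log2 fold change of -0.06, against 15% lower and 12.5% higher among all genes. The difference from the replication genes was not tested. The proliferation marker Mki67 stood at 88.8, 88.5 and 89.7 FPKM after fragments, against 74.9, 83.5 and 88.4 FPKM in untreated cells (0.12, adjusted p = 0.232). Cyclin B1 (Ccnb1) averaged 14.7 ± 0.520 FPKM after fragments and 14.6 ± 0.356 FPKM in untreated cells (0.01, adjusted p = 0.932). For Ccnb1 the groups overlapped, and for Mki67 the lowest fragment value lay just above the highest untreated one. Top2a, the DNA topoisomerase of dividing cells, fell to 32.0 ± 1.36 FPKM after fragments, against 40.1 ± 1.75 FPKM in untreated cells (-0.32, adjusted p = 1.70e-04), and Plk1, a mitotic kinase, rose by 0.26 (adjusted p = 0.00902). The 2 rises were 1 without untreated library 2. The cell cycle homology region TTTGAA, typical of mitotic promoters, was found on either strand in 28 of the 38 windows of this list (73.7%), against 11.9% of all windows, and 6 of those 28 genes fell. The windows of Kif14, which fell, Cdca8 and Kif2c are counted here although their annotated starts lie 1505, 2394 and 3867 bases from the deposited gene starts.

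Among regulators of entry into the cycle 9 of 18 fell and 3 rose, with a median of -0.25. Ccnd1, the D cyclin that links growth factor signals to the cycle, was at 4.22, 4.92 and 4.21 FPKM after fragments, against 12.1, 12.7 and 11.6 FPKM in untreated cells (-1.27, SE 0.0808, adjusted p = 1.23e-07). All fragment values of Ccnd1 were below 5 FPKM and all untreated values above 11 FPKM. Ccnd2 fell by 0.24 (adjusted p = 1.06e-05), and Ccnd3 did not pass the test (-0.53, adjusted p = 0.452). Myc, a driver of growth and ribosome production, fell to 18.9 ± 1.09 FPKM after fragments, against 28.9 ± 1.60 FPKM in untreated cells (-0.58, adjusted p = 3.80e-05). Cdkn1a, the cell cycle inhibitor p21, rose by 0.18 (adjusted p = 0.00711).

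Genes of ribosome production fell with them. Of 38 genes of ribosome biogenesis 30 fell and 0 rose, with a median of -0.25. Nop58 and Dkc1, core proteins of the snoRNA complexes that modify ribosomal RNA, fell most. Nop58 was at 4.24, 3.89 and 4.02 FPKM after fragments, against 5.97, 6.25 and 6.92 FPKM in untreated cells (-0.55, adjusted p = 2.49e-05). Dkc1, which encodes dyskerin, was at 6.05, 6.89 and 6.73 FPKM after fragments, against 10.0, 9.81 and 10.2 FPKM in untreated cells (-0.54, adjusted p = 3.04e-05). In both genes the groups were clearly apart. Polr1a, the largest subunit of RNA polymerase I, fell by 0.36 (adjusted p = 3.91e-04). Of 74 cytosolic ribosomal protein genes 33 fell and 0 rose, with a smaller median of -0.17, and Rpl4 averaged 379 ± 14.4 FPKM after fragments and 439 ± 2.75 FPKM in untreated cells (-0.21, adjusted p = 2.48e-04). The count of 33 depended on the libraries, with 18 without untreated library 1 and 19 without fragment library 2, and it was 20 with TMM rescaling.

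**Figure D3:**
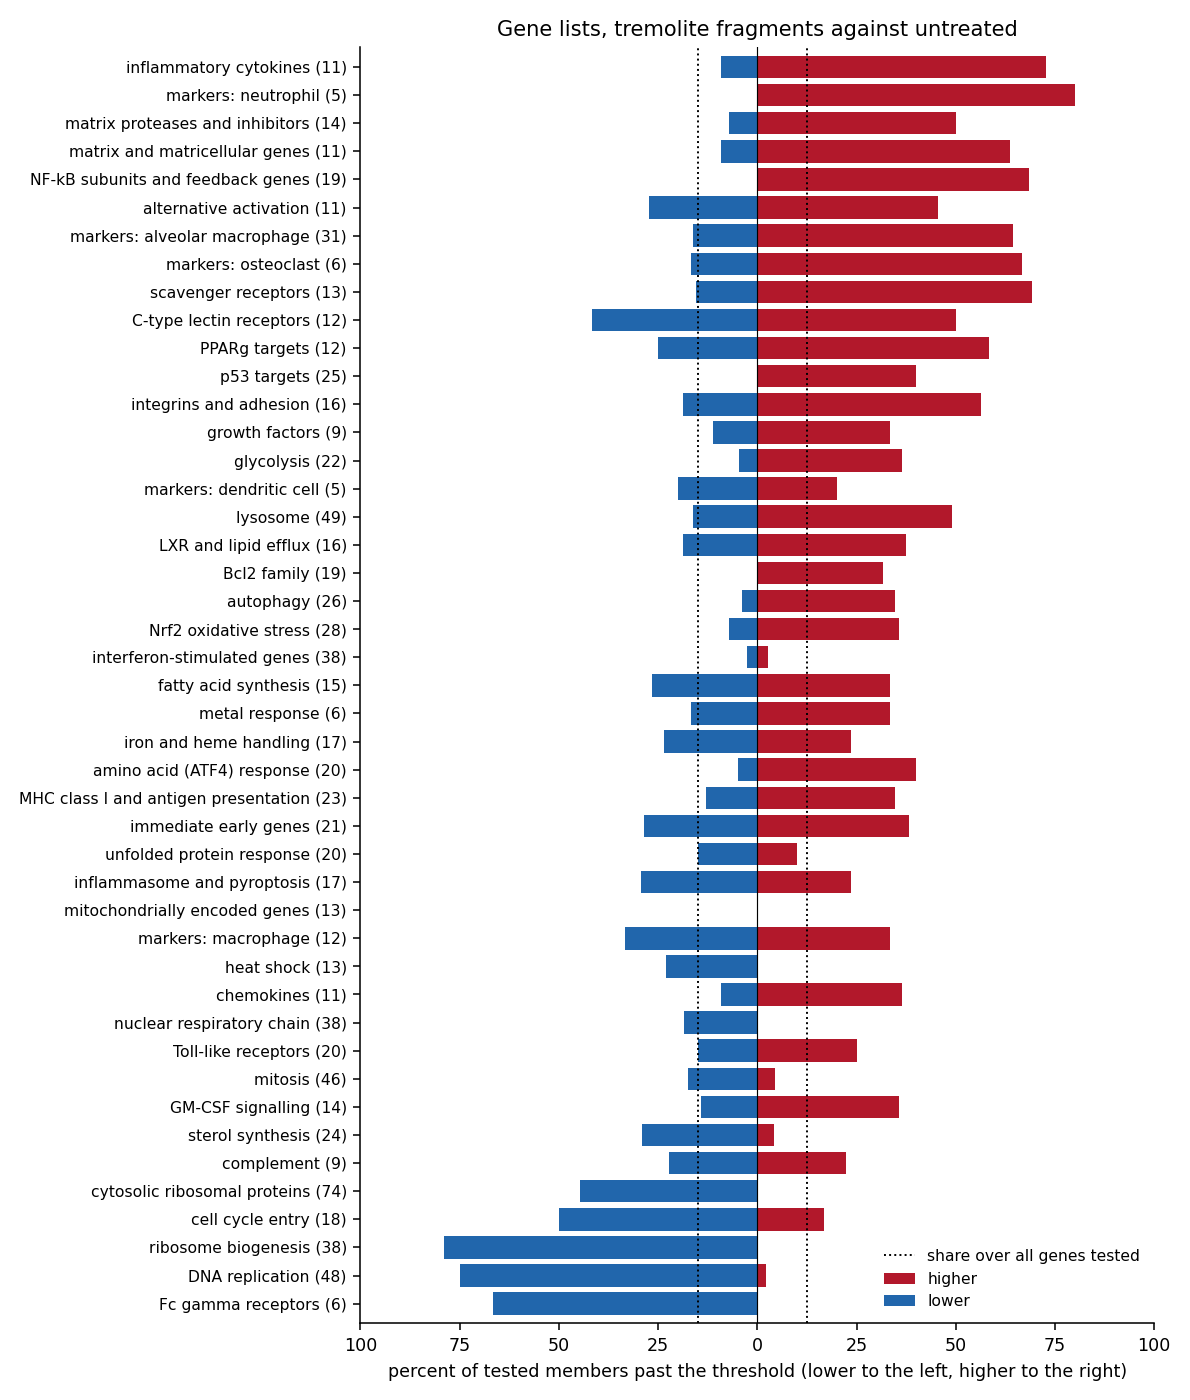
For each gene list with at least 5 members tested (their number in brackets), red bars give the percent of members that rose after tremolite fragments and blue bars the percent that fell, ordered by the median log2 fold change of the list. Dotted lines mark the shares over all genes tested, 12.5% higher and 15% lower, and ribosome biogenesis (30 of 38) and DNA replication (36 of 48) show long blue bars.

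Most cytokine genes tested rose. Of 11 cytokine genes tested 8 rose and 1 fell, with a median of 0.62. Il1b, which encodes the inflammasome-processed cytokine interleukin-1 beta, was at 21.0, 21.8 and 24.7 FPKM after fragments, against 9.37, 11.1 and 12.1 FPKM in untreated cells (0.99, SE 0.0874, adjusted p = 2.40e-06). Tnf was at 12.4, 15 and 14.6 FPKM after fragments, against 6.19, 7.64 and 7.79 FPKM in untreated cells (0.87, adjusted p = 1.11e-04). Both cytokines were about 2 times as high after fragments, and in both the groups did not overlap. Il1rn, the receptor antagonist that blocks interleukin-1, averaged 11 ± 1.08 FPKM after fragments and 5.63 ± 0.340 FPKM in untreated cells (0.85, adjusted p = 2.64e-07). Osm, which encodes oncostatin M, averaged 2.15 ± 0.406 FPKM after fragments and 0.738 ± 0.149 FPKM in untreated cells (0.85, adjusted p = 1.83e-05). The member that fell, joined by 1 more without untreated library 2, was Il18, with 67.5 ± 0.678 FPKM after fragments and 101.3 ± 2.78 FPKM in untreated cells (-0.58, adjusted p = 1.23e-06).

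Of 11 chemokine genes 4 rose (Cxcl2, Ccl17, Cxcl1 and Ccl22) and 1 fell, with a median of -0.04. Among all genes 12.5% rose and 15% fell. The summed level of the list was 3863 to 4062 FPKM after fragments and 3937 to 4270 FPKM in untreated cells. Cxcl1 and Ccl22 were low in both groups, with means of 0.466 and 0.670 FPKM after fragments, against 0.108 and 0.307 FPKM in untreated cells. Cxcl2, which attracts neutrophils, was at 6.04, 6.93 and 6.62 FPKM after fragments, against 1.48, 1.57 and 1.91 FPKM in untreated cells (1.51, SE 0.142, adjusted p = 4.23e-06). Ccl17, which attracts T cells, averaged 32.2 ± 1.12 FPKM after fragments and 15.8 ± 0.519 FPKM in untreated cells (0.98, adjusted p = 2.33e-08). The monocyte chemokine Ccl2 was low in both groups and overlapped, with 0.153, 0.362 and 0.647 FPKM after fragments and 1.02, 0.805 and 0.560 FPKM in untreated cells (-0.38, adjusted p = 0.272). Ccl9, the member that fell by 0.14, lost its call when any 1 of the 6 libraries was left out.

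Genes of the NF-kB pathway were higher as a group, mostly its inhibitors and feedback genes. Of 19 tested, 13 rose and 0 fell, with a median of 0.36. Nfkbia, the inhibitor IkB-alpha, was at 43.8, 49.1 and 46.4 FPKM after fragments, against 25.3, 26.2 and 30.0 FPKM in untreated cells (0.76, SE 0.10, adjusted p = 8.59e-05). Tnfaip3, which encodes the ubiquitin-editing inhibitor A20, was at 3.42, 5.41 and 5.78 FPKM after fragments, against 1.67, 2.02 and 2.14 FPKM in untreated cells (0.98, adjusted p = 0.00254). Fragment library 1 was the lowest of its group for Tnfaip3 and still above every untreated library. The subunit genes Nfkb2 and Relb of the non-canonical arm rose by 0.53 (adjusted p = 1.96e-06) and 0.56 (adjusted p = 0.00193). Rela and Nfkb1 did not pass the test, with log2 fold changes of 0.10 (adjusted p = 0.130) and 0.11 (adjusted p = 0.119).

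The promoters of Nfkbia (chr12:55492598-55492897, minus strand) and Nfkb2 (chr19:46304487-46304786, plus strand) are given because both genes rose and hold the NF-kB motif (GGGA, any base, TT, any base, CC), in capitals, within 50 bases before the start (RefSeq, GRCm38.p6, 5′ to 3′ on the strand of the gene).
Nfkbia: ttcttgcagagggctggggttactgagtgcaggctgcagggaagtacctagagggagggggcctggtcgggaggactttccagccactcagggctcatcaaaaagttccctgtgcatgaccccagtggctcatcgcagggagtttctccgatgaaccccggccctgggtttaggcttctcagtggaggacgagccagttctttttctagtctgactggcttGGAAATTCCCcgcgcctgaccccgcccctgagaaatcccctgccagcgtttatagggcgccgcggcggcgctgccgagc
Nfkb2: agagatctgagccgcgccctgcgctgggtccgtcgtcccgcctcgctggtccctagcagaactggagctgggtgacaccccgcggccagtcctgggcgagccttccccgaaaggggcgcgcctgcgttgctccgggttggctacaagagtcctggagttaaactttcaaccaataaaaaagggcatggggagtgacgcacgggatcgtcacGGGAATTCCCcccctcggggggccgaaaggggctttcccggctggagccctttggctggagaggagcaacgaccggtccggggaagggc
The motif was searched on both strands and found in 6 of the 15 windows of the NF-kB list (40%), against 1.22% of all windows, and 4 of those 6 genes rose. For Tnip3, which is among those 4, the annotated start lies 65085 bases from the deposited gene start. Windows of the 2 genes with the largest rises, H2-M2 (chr17:37483505-37483804, minus strand) and Inhba (chr13:16011601-16011900, plus strand), were searched for the same motif and for AP-1 (TGANTCA), the antioxidant response element (TGACNNNGC, which can overlap AP-1) and PU.1 (GAGGAAGT).
H2-M2: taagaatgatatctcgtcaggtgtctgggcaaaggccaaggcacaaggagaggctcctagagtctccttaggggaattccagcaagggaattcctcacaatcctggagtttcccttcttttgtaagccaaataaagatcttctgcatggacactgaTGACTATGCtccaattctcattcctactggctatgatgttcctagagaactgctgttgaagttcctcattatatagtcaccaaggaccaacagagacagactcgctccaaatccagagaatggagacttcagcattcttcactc
Inhba: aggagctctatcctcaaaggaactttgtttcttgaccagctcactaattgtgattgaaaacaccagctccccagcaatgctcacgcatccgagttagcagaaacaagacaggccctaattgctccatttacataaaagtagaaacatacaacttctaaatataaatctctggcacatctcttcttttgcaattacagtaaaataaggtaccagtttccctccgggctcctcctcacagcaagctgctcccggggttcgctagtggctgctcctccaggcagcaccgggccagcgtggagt
H2-M2 held 1 match to the antioxidant response element, which 15.2% of all windows hold, and in the window of Inhba none of these letters occur.

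Inflammasome genes split. Of 17 tested 4 rose and 5 fell. Beside Il1b the genes that rose were Naip2 (0.44, adjusted p = 9.64e-08), Naip5 (0.18, adjusted p = 0.00221) and Nlrc4 (0.26, adjusted p = 0.00327), the sensor and adaptor of a bacterial-protein inflammasome. Casp1, the protease that cleaves interleukin-1 beta, fell to 56.4 ± 1.01 FPKM after fragments, against 72.0 ± 3.20 FPKM in untreated cells (-0.35, adjusted p = 0.00126). Gsdmd, the pore protein of pyroptosis, fell by 0.31 (adjusted p = 0.00295). Nlrp3, the sensor known to respond to crystals and fibres, overlapped between the groups, with 7.80, 10.5 and 7.33 FPKM after fragments and 11.2, 10.3 and 8.09 FPKM in untreated cells (-0.19, adjusted p = 0.290).

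Interferon-stimulated genes showed few changes, with 1 of 38 higher and 1 lower and a median of 0.09. The rise did not pass without untreated library 2 or 3 or fragment library 3. The fall was that of Irf1, a transcription factor (-0.36, adjusted p = 0.0438), which lost its call without any 1 of the 6 libraries, at 0.0675 to 0.144.

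Complement genes moved in opposite directions, with 2 of 9 higher and 2 lower, against 12.5% higher and 15% lower among all genes. Cfb, factor B of the alternative pathway, was at 56.0, 57.3 and 56.7 FPKM after fragments, against 9.67, 11.3 and 11.3 FPKM in untreated cells (2.30, SE 0.0884, adjusted p = 1.01e-09). The overlapping gene Gm20547 shares 79.5% of the exon bases of Cfb on the same strand, so its reads may be split. C3, the central component, averaged 126 ± 3.72 FPKM after fragments and 74.1 ± 5.55 FPKM in untreated cells (0.76, adjusted p = 1.61e-07). Cfp, which encodes properdin, fell and averaged 85.6 ± 3.42 FPKM after fragments and 148 ± 3.48 FPKM in untreated cells (-0.78, adjusted p = 2.26e-07).

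Receptors on the cell surface changed in both directions. Of 6 Fc gamma receptor genes 4 fell and 0 rose, with a median of -0.48. Fcgr2b, the inhibitory receptor for IgG complexes, was at 60.3, 60.9 and 64.9 FPKM after fragments, against 131, 136 and 138 FPKM in untreated cells (-1.11, SE 0.0854, adjusted p = 6.40e-07). The untreated values of Fcgr2b were about 2 times those after fragments. Of 13 scavenger receptor genes 9 rose and 2 fell. Olr1, the receptor LOX-1 for oxidised lipoprotein, was at 239.8, 235 and 221 FPKM after fragments, against 107, 110.0 and 110.2 FPKM in untreated cells (1.08, adjusted p = 3.71e-10). Cd36 averaged 212 ± 16.5 FPKM after fragments and 128 ± 9.46 FPKM in untreated cells (0.72, adjusted p = 1.59e-06). Both were higher in every fragment library. Marco, a receptor known to bind mineral particles, rose by 0.23 (adjusted p = 0.00442), and Msr1 did not pass the test (-0.08, adjusted p = 0.0888).

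Of 12 C-type lectin genes 6 rose and 5 fell. Clec4e, the receptor Mincle, averaged 5.27 ± 0.509 FPKM after fragments and 2.25 ± 0.475 FPKM in untreated cells (0.96, adjusted p = 1.34e-05), and Clec5a averaged 40.6 ± 1.00 FPKM after fragments and 22.1 ± 0.792 FPKM in untreated cells (0.85, adjusted p = 3.26e-08). Clec12a, an inhibitory receptor for uric acid crystals, averaged 0.783 ± 0.103 FPKM after fragments and 3.62 ± 0.341 FPKM in untreated cells (-1.37, adjusted p = 1.66e-08). Clec4a3 fell by 1.34 (adjusted p = 4.72e-08). The 5 falls were 3 without fragment library 3. Of 16 integrin and adhesion genes 9 rose and 3 fell, led by Itgb5 (1.06, adjusted p = 1.76e-07), the partner of the alpha-v chain. Of 20 genes of Toll-like receptor signalling 5 rose and 3 fell, among them Cd14 (0.60, adjusted p = 3.61e-04) and Tlr1 (-0.55, adjusted p = 8.09e-04). Among all genes 12.5% rose and 15% fell.

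Receptor chain genes in the list for GM-CSF, the factor in the medium of both groups, were higher by unequal amounts. The 3 tested rose, with log2 fold changes of 0.16 to 1.13, and those named next rose most. Csf2rb, the common beta chain, was at 266, 265 and 254 FPKM after fragments, against 131, 128 and 131 FPKM in untreated cells (1.00, SE 0.0329, adjusted p = 2.56e-10). Csf2rb2, its close copy in the mouse, averaged 104 ± 2.75 FPKM after fragments and 46.8 ± 0.446 FPKM in untreated cells (1.13, adjusted p = 2.56e-10). Because of their likeness reads may be split between them. Cish, a feedback inhibitor induced by STAT5 downstream of the GM-CSF receptor, went down to 5.09 ± 0.332 FPKM after fragments, against 10.8 ± 0.0918 FPKM in untreated cells (-0.96, adjusted p = 5.10e-05). Over the list of 14 genes of GM-CSF signalling 5 rose and 2 fell, and the falls were 4 without untreated library 1.

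Stress pathways differed among themselves. Of 28 genes of the Nrf2 oxidative stress response 10 rose and 2 fell, with a median of 0.10, against 12.5% higher and 15% lower among all genes. Hmox1, the heme oxygenase that degrades heme, was at 181, 179 and 168 FPKM after fragments, against 88.6, 84.2 and 82.0 FPKM in untreated cells (1.05, SE 0.0496, adjusted p = 9.48e-09). Every fragment value of Hmox1 was about 2 times any untreated one. Srxn1, sulfiredoxin, averaged 22.6 ± 2.81 FPKM after fragments and 12.8 ± 2.23 FPKM in untreated cells (0.78, adjusted p = 6.55e-04). Among the falls was Gsr, with 140 ± 3.63 FPKM after fragments, against 184 ± 3.98 FPKM in untreated cells (-0.40, adjusted p = 4.76e-07). The metallothionein genes Mt1 and Mt2, which bind zinc and copper, rose by 0.58 (adjusted p = 2.22e-05) and 0.72 (adjusted p = 7.55e-06). An antisense gene overlaps 73.5% of the exon bases of Mt2. Over the 6 metal response genes tested 2 rose and 1 fell, Slc39a10 (-0.62, adjusted p = 5.34e-06).

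Of 20 genes of the ATF4 amino acid response 8 rose and 1 fell. Gdf15, a secreted stress factor, averaged 7.06 ± 1.15 FPKM after fragments and 3.10 ± 0.144 FPKM in untreated cells (0.96, adjusted p = 8.63e-05), and Asns, asparagine synthetase, rose by 0.48 (adjusted p = 4.86e-04). The fall did not pass without untreated library 2 or fragment library 3, and the falls were 2 without fragment library 2. Of 25 p53 target genes 10 rose and 0 fell, with a median of 0.18. Gadd45a, which responds to DNA damage and other stress, averaged 13.6 ± 1.18 FPKM after fragments and 7.14 ± 0.276 FPKM in untreated cells (0.84, adjusted p = 0.00124), and the kinase gene Plk2 rose by 0.81 (adjusted p = 2.40e-06). The count was 6 with sums of transcripts in place of the gene values, and there Mdm2, which rose by 0.44 in the gene table, had a log2 fold change of -0.34. In the transcript table Mdm2-201 was at 2.66, 2.32 and 2.16 FPKM after fragments, against 17.1, 2.45 and 1.93 FPKM in untreated cells, so untreated library 1 alone was high.

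Among all genes 12.5% rose and 15% fell. Of 20 genes of the unfolded protein response 2 rose and 3 fell, among them Xbp1 (-0.62, adjusted p = 8.90e-08), and of 13 heat shock genes 0 rose and 3 fell. The rises in the unfolded protein list were 1 without untreated library 1 or 2 or fragment library 2, and the heat shock falls were 1 without fragment library 2 or untreated library 3. Immediate early genes split, with 8 of 21 higher and 6 lower. Maff, a small MAF factor, was at 14.5, 15.8 and 11.7 FPKM after fragments, against 5.63, 5.94 and 5.48 FPKM in untreated cells (1.16, adjusted p = 2.85e-07). Klf2, a factor of quiescent macrophages, was at 5.97, 5.62 and 7.04 FPKM after fragments, against 13.9, 13.9 and 14.1 FPKM in untreated cells (-1.06, adjusted p = 6.41e-06). In each the groups were far apart, in opposite directions. Of 19 genes of the Bcl2 family, which decides on apoptosis, 6 rose and 0 fell, among them the survival genes Bcl2a1a, Bcl2a1b and Bcl2a1d, near-identical copies with log2 fold changes of 0.44 to 0.61. Without fragment library 1, untreated library 1 or untreated library 3, 1 member of the list fell.

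Genes of the lysosome rose more often than they fell. Of 49 tested, 24 rose and 8 fell, with a median of 0.13. Ctsk, the collagen-degrading protease cathepsin K, averaged 1082 ± 53.5 FPKM after fragments and 806 ± 48.2 FPKM in untreated cells (0.42, adjusted p = 2.35e-05). Scarb2, a membrane protein of lysosomes, was at 70.3, 70.6 and 70.1 FPKM after fragments, against 55.6, 54.1 and 54.4 FPKM in untreated cells (0.36, adjusted p = 4.01e-07). Ctsc, the protease cathepsin C, was at 167, 173 and 169 FPKM after fragments, against 259.5, 257 and 269.9 FPKM in untreated cells (-0.62, adjusted p = 3.83e-07), with no overlap. The letters CACGTG of the CLEAR motif of lysosomal promoters were found in 11 of 38 windows of the list (28.9%), against 11% of all windows, and 6 of those 11 genes rose. Of 26 autophagy genes 9 rose and 1 fell, and the fall did not pass without fragment library 1 or 2 or untreated library 3. Sqstm1, the cargo receptor p62, averaged 115 ± 2.23 FPKM after fragments and 80.5 ± 0.795 FPKM in untreated cells (0.51, adjusted p = 1.64e-05), and Wipi1 rose by 0.56 (adjusted p = 1.05e-04).

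In metabolism, 8 of 22 genes of glycolysis rose and 1 fell. Slc16a1, a lactate transporter, was at 17.0, 15.8 and 16.4 FPKM after fragments, against 8.61, 8.94 and 8.15 FPKM in untreated cells (0.87, adjusted p = 3.49e-08), and the glucose transporter gene Slc2a1 rose by 0.61 (adjusted p = 6.44e-05). None of the 13 mitochondrially encoded genes passed the test (limma), and 2 of them, mt-Co3 and mt-Nd3, had an unadjusted p under 0.05. Without fragment library 1 or untreated library 2, 1 fell. Of 38 nuclear genes of the respiratory chain 7 fell and 0 rose, against 15% lower and 12.5% higher among all genes. Without fragment library 2 only 4 of them fell. Lipid genes were mixed. Abca1, which exports cholesterol, averaged 20.6 ± 0.129 FPKM after fragments and 11.9 ± 0.50 FPKM in untreated cells (0.75, adjusted p = 1.95e-07), and Hilpda, which protects lipid droplets from lipolysis, averaged 9.54 ± 1.07 FPKM after fragments and 3.91 ± 0.188 FPKM in untreated cells (1.10, adjusted p = 5.65e-05). Of 15 genes of fatty acid synthesis 5 rose and 4 fell, with a median of 0.08. Among the falls were Acly, by 0.58 (adjusted p = 3.60e-07), and Elovl6, by 0.98 (adjusted p = 1.10e-06). Of 24 genes of sterol synthesis 7 fell and 1 rose, and 2 rose without fragment library 1 or untreated library 1.

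Genes that build or cut the extracellular matrix were mostly higher. Of 14 proteases and inhibitors 7 rose and 1 fell (2 without untreated library 3), with a median of 0.39. Mmp12, the macrophage elastase, was at 90.1, 77.2 and 71.0 FPKM after fragments, against 20.0, 21.7 and 23.6 FPKM in untreated cells (1.82, SE 0.119, adjusted p = 1.55e-07). Mmp8, a collagenase, was at 5.33, 5.52 and 5.16 FPKM after fragments, against 1.34, 1.98 and 2.61 FPKM in untreated cells (1.11, adjusted p = 2.89e-05). The untreated values of Mmp8 varied by about 2 times, and all were below those after fragments. Of 11 matricellular genes 7 rose and 1 fell. Tgfbi, an adhesion protein induced by TGF-beta, was at 17.6, 17.0 and 19.2 FPKM after fragments, against 3.69, 3.60 and 3.81 FPKM in untreated cells (2.01, adjusted p = 2.82e-10). Tgm2, a cross-linking enzyme, averaged 37.3 ± 1.86 FPKM after fragments and 14.1 ± 0.323 FPKM in untreated cells (1.34, adjusted p = 2.36e-10). Fn1, fibronectin, did not pass the test (0.03, adjusted p = 0.885). Of 11 genes of alternative activation 5 rose and 3 fell, with a median of 0.30. Arg1, a marker of that state, varied widely after fragments and overlapped between the groups, with 2.19, 1.28 and 0.571 FPKM after fragments and 0.862, 0.772 and 0.808 FPKM in untreated cells (0.31, adjusted p = 0.499).

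Of 22795 transcripts, 22038 were tested in the same way, and 718 were higher and 668 lower after fragments than in untreated cells (6.29%, with 3.26% higher and 3.03% lower). The falls were 426 without fragment library 1 and 445 without untreated library 2. In 7 genes (Atxn3, Enpp5, Ginm1, Map6, Nqo2, Prmt1 and Zfp995) transcripts moved in both directions. The share of a gene's summed FPKM held by each transcript was tested for 15081 transcripts of 4631 genes, and 4 passed (0.0265%). With 1 library left out this count was between 7 and 14.

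The clearest change of transcript use was in Map6, a microtubule-associated protein gene on chromosome 7. Transcript Map6-206 held 0.00990, 0.00364 and 0.0154% of the summed FPKM of Map6 in the fragment libraries, against 96.9, 91.0 and 95.5% in untreated cells (difference -94.5 percentage points, limma adjusted p = 1.84e-10). Transcript Map6-202 held 85.0, 78.8 and 89.5% in the fragment libraries, against 0.250, 0.969 and 0.187% in untreated cells (difference 84.0 percentage points, adjusted p = 8.07e-09). Map6-202 thus held most of the sum in each of the 3 fragment libraries, and Map6-206 in each of the untreated ones. Map6-202 was at 5.55, 7.46 and 6.02 FPKM after tremolite fragments, and at 0.130 FPKM or less in all libraries of the 4 other groups, while Map6-206 was at 0.000646, 0.000345 and 0.00103 FPKM after tremolite fragments and at 7.62 to 12.1 FPKM in those 12 libraries. In the GENCODE M21 annotation both transcripts have 3 exons of which 2 are identical, and they differ by 60 bases at the start of the first exon (99268346 against 99268406, GRCm38, plus strand). Assignment of reads between such transcripts can be uncertain. The level of the whole gene did not pass the test, with 2.33, 3.30 and 2.04 FPKM after fragments and 2.61, 2.47 and 2.81 FPKM in untreated cells (-0.04, adjusted p = 0.806). In each of these libraries the gene value lay below that of its main transcript, so gene and transcript values of Map6 are not on the same footing. The cause was not tested. The other shares past the threshold were those of Ube2k-203 (-5.49 percentage points, adjusted p = 0.001) and Tmem216-206 (-44.2, adjusted p = 0.0425). The call for Tmem216-206 was lost without any 1 of the fragment libraries or untreated library 3, at adjusted p-values of 0.0547 to 0.104.

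**Figure D4:**
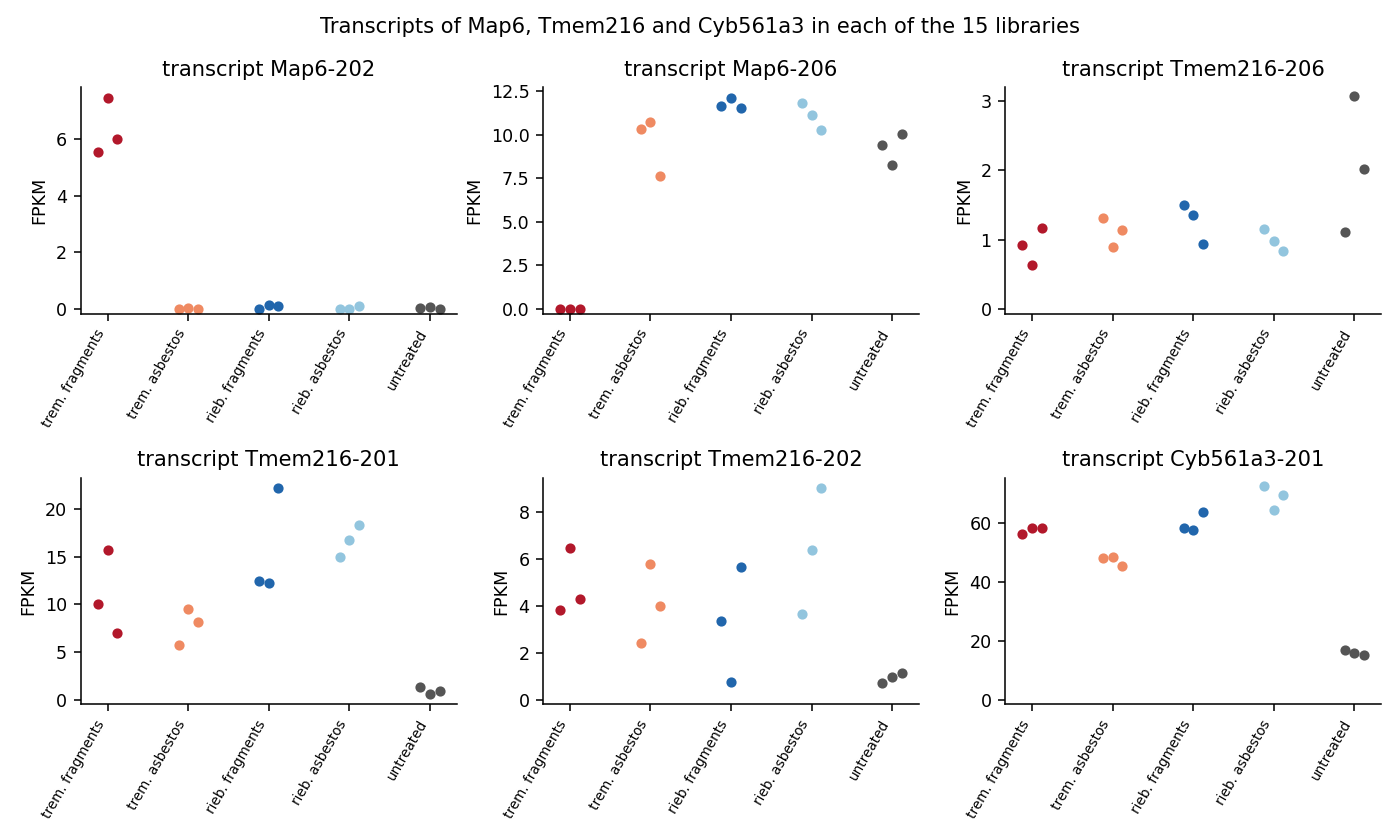
FPKM of 6 transcripts of Map6, Tmem216 and Cyb561a3 in each of the 15 libraries, by group, with tremolite fragments at the left and untreated cells at the right. Map6-202 is above 5 FPKM in the tremolite fragment libraries and near 0 in the others, Map6-206 shows the opposite, and Cyb561a3-201 and Tmem216-201 are higher in all exposed groups than in untreated cells.

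The next question was how the response to the fragments differs from that to asbestos fibres of the same mineral. Habit and mass (60 and 5 µg/cm²) cannot be told apart here. After tremolite fragments 59 genes were higher and 41 lower than after tremolite asbestos (0.942% of those tested by limma, 0.556% higher and 0.386% lower), and 1162 genes had an unadjusted p under 0.05. The counts moved with single libraries, and were 18 higher and 13 lower without fragment library 1, 21 and 22 without fragment library 2, 37 and 24 without fragment library 3, 30 and 15 without asbestos library 1, and 21 and 18 without asbestos library 3. With the 2 groups alone in the fit they were 12 and 17.

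The proteases Mmp8 and Mmp12 and the receptor Cxcr2 were higher after the fragments. Mmp8 was at 5.33, 5.52 and 5.16 FPKM after tremolite fragments, against 1.91, 1.54 and 1.68 FPKM after tremolite asbestos (1.23, SE 0.130, adjusted p = 6.40e-04). After asbestos Mmp8 was thus within the range of the untreated libraries. Mmp12 was at 90.1, 77.2 and 71.0 FPKM after tremolite fragments, against 47.7, 42.1 and 34.1 FPKM after tremolite asbestos (0.93, adjusted p = 0.00267). Cxcr2, the receptor for Cxcl2, was at 9.27, 9.81 and 11.5 FPKM after tremolite fragments, against 4.60, 6.17 and 5.70 FPKM after tremolite asbestos (0.79, adjusted p = 0.00322). For these genes no fragment library overlapped with an asbestos library, and with the 2 groups alone in the fit the adjusted p was 0.0578 for both Mmp12 and Cxcr2. Mmp13 (0.45, adjusted p = 0.0238) was also higher, and in all 4 of 14 proteases and inhibitors were higher and 1, Ctsk, was lower (-0.24, adjusted p = 0.0305). The summed level of the 14 was 1415 to 1527 FPKM after tremolite fragments and 1551 to 1694 FPKM after tremolite asbestos. Of the 5 neutrophil markers tested Cxcr2 and Mmp8 passed and 3 did not.

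The alveolar macrophage genes Ear1 (0.90, adjusted p = 6.40e-04), Krt79 (0.82, adjusted p = 1.62e-04) and Siglecf (0.47, adjusted p = 0.00604) were higher after tremolite fragments than after tremolite asbestos. Of the 31 genes of that list 4 were higher and 2 lower, Ctsk and Fabp4 (-0.32, adjusted p = 0.0272). Krt79 averaged 5.76 ± 0.170 FPKM after the fragments and 2.83 ± 0.382 FPKM after asbestos. Hmox1 was higher as well, with 176 ± 6.95 FPKM after the fragments and 132 ± 7.44 FPKM after asbestos (0.41, adjusted p = 0.00188). Srgn, the proteoglycan serglycin, was higher by 0.67 (adjusted p = 0.00492). Not all of these genes were low after the other asbestos. Riebeckite asbestos gave means of 34.1 FPKM for Ear1, 6.83 FPKM for Krt79, 203 FPKM for Hmox1, 6.03 FPKM for Srgn and 13.5 FPKM for Cxcr2. These means lay near or above those after tremolite fragments. For Mmp8 (1.56 FPKM) and Mmp12 (41.0 FPKM) they lay below. The differences from riebeckite asbestos were not tested.

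Other genes were lower after the fragments. H2-M2 was at 12.5, 10.9 and 11.3 FPKM after tremolite fragments, against 24.2, 29.9 and 25.8 FPKM after tremolite asbestos (-1.13, SE 0.0797, adjusted p = 3.84e-05). Acod1, the enzyme that makes itaconate, was at 5.12, 4.97 and 4.63 FPKM after tremolite fragments, against 8.79, 8.82 and 8.45 FPKM after tremolite asbestos (-0.71, adjusted p = 5.07e-04). Both genes had little spread within groups and no overlap. Rbp4, a retinol carrier, was lower by 0.43 (adjusted p = 0.00492, and 0.0559 with the 2 groups alone). Like H2-M2, Acod1 and Rbp4 were nonetheless higher after tremolite fragments than in untreated cells. Acod1 averaged 4.91 FPKM after tremolite fragments and 0.710 FPKM in untreated cells (1.79, limma adjusted p = 1.39e-09). Rbp4 averaged 16.9 and 8.74 FPKM (0.87, adjusted p = 2.26e-07). The differences of Nkiras2, Npff, Mndal, Mitd1, Adgre4, Clec4e and Ccnd1, between 1.00 and -0.68, passed over all libraries and were each lost when any 1 of several libraries was left out (adjusted p 0.0525 to 0.163). None of the genes of DNA replication (0 of 48), ribosome biogenesis (0 of 38), cytokines (0 of 11) and the NF-kB list (0 of 19) passed the test between fragments and asbestos (limma). Only 0.942% of all genes passed, so counts of 0 are near that share and do not show that these lists were alike. At an unadjusted p under 0.05 these lists held 3, 1, 2 and 3 genes, against 1162 of all 10616 genes tested. The interferon-stimulated genes also had 0 of 38 past the test, but 18 of the 38 at an unadjusted p under 0.05 and a median of -0.55. Their summed level was 725.3 to 819.6 FPKM after tremolite fragments and 1044 to 1278 FPKM after tremolite asbestos, without overlap.

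Against riebeckite fragments, the same habit of another amphibole at 40 µg/cm², 638 genes were higher after tremolite fragments and 564 lower (11.3% of those tested by limma, 6.01% higher and 5.31% lower). With TMM rescaling these counts were 487 and 683, and with the 2 groups alone in the fit 318 and 358. The higher genes were 406, 329 and 346 without tremolite fragment library 1, 2 and 3, and 328 without riebeckite fragment library 1.

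Tgfbi and Fn1 were higher after tremolite fragments, while the matrix and adhesion lists went both ways. Tgfbi was at 17.6, 17.0 and 19.2 FPKM after tremolite fragments, against 4.02, 4.04 and 4.16 FPKM after riebeckite fragments (1.90, SE 0.0671, adjusted p = 8.08e-09). Fn1 was at 6.40, 5.99 and 5.65 FPKM after tremolite fragments, against 1.81, 2.11 and 2.10 FPKM after riebeckite fragments (1.22, adjusted p = 7.70e-06). The riebeckite values of Tgfbi were close to the untreated level of 3.70 ± 0.107 FPKM, whereas for Fn1 it was the tremolite values that lay near the untreated level of 5.93 ± 0.984 FPKM. Emilin2, an elastic fibre protein (1.14, adjusted p = 9.59e-05), and Olfm1, a secreted olfactomedin (1.42, adjusted p = 3.98e-08), were higher too. Both nonetheless fell after tremolite fragments when set against untreated cells. The log2 fold changes were -0.73 for Emilin2 (limma adjusted p = 6.44e-04) and -0.42 for Olfm1 (adjusted p = 2.497e-04). Their means after riebeckite fragments were lower still. Of the 11 matrix and matricellular genes tested 4 were higher and 2 lower, Spp1 (-0.53, adjusted p = 1.93e-05) and Mfge8 (-0.58, adjusted p = 1.89e-05), with a median of -0.09. Their summed level was 2925 to 3159 FPKM after tremolite fragments and 3837 to 4141 FPKM after riebeckite fragments. Of 16 genes of integrins and adhesion 1 was higher and 4 lower, and of 14 matrix proteases and inhibitors 1 was higher and 3 lower.

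Inflammatory genes differed in both directions. Of 11 cytokines 3 were higher and 1 lower after tremolite fragments, and of 11 chemokines 4 were higher and 2 lower, Ccl12 (-0.78, adjusted p = 0.0272) and Ccl17 (-0.43, adjusted p = 1.97e-04). Cxcl2 was at 6.04, 6.93 and 6.62 FPKM after tremolite fragments, against 2.72, 2.64 and 2.02 FPKM after riebeckite fragments (1.13, adjusted p = 2.56e-04). Tnf averaged 14.0 ± 1.37 FPKM after tremolite fragments and 8.89 ± 1.45 FPKM after riebeckite fragments (0.61, adjusted p = 0.00569). Of the NF-kB list 8 of 19 were higher and 0 lower, and of the immediate early genes 10 of 21 were higher and 1 lower. Ch25h, which makes 25-hydroxycholesterol, was at 4.25, 5.80 and 4.62 FPKM after tremolite fragments, against 1.47, 1.53 and 2.04 FPKM after riebeckite fragments (1.13, adjusted p = 9.59e-05). Ms4a8a, a membrane protein of macrophages, was higher by 0.93 (adjusted p = 3.75e-06). Against untreated cells, however, Ch25h and Ms4a8a both fell after tremolite fragments. Ch25h averaged 4.89 FPKM after tremolite fragments and 9.05 FPKM in untreated cells (-0.78, limma adjusted p = 3.64e-04). Ms4a8a averaged 17.4 and 29.8 FPKM (-0.75, adjusted p = 3.25e-06). The difference of Atxn7 (0.89, adjusted p = 0.0263) was lost without any 1 of the tremolite fragment libraries or riebeckite fragment library 1 or 2 (0.0520 to 0.0990).

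Lower after tremolite fragments were Acp5, Agt, Hpse and others. Acp5 averaged 12.9 ± 1.87 FPKM after tremolite fragments and 28.9 ± 1.30 FPKM after riebeckite fragments (-1.12, adjusted p = 3.75e-06). Agt, angiotensinogen, was at 4.98, 4.34 and 4.99 FPKM after tremolite fragments, against 15.5, 13.9 and 14.1 FPKM after riebeckite fragments (-1.42, adjusted p = 7.67e-07), and the tremolite values lay near the untreated mean of 4.66 ± 0.587 FPKM. Hpse, heparanase, averaged 1.37 ± 0.0230 FPKM after tremolite fragments and 5.07 ± 0.132 FPKM after riebeckite fragments (-1.36, adjusted p = 5.58e-07). Tarm1 (-1.47), Tceal5 (-1.41), Pdzk1ip1 (-1.23), Il1f9 (-1.14) and Awat1 (-1.12) differed in the same direction, with adjusted p-values of 1.17e-05 or less. Genes of lipid synthesis were lower as well, 12 of 24 in sterol synthesis with a median of -0.24 and 8 of 15 in fatty acid synthesis with a median of -0.25, and 13 of 49 lysosomal genes were lower and 3 higher.

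**Figure D5:**
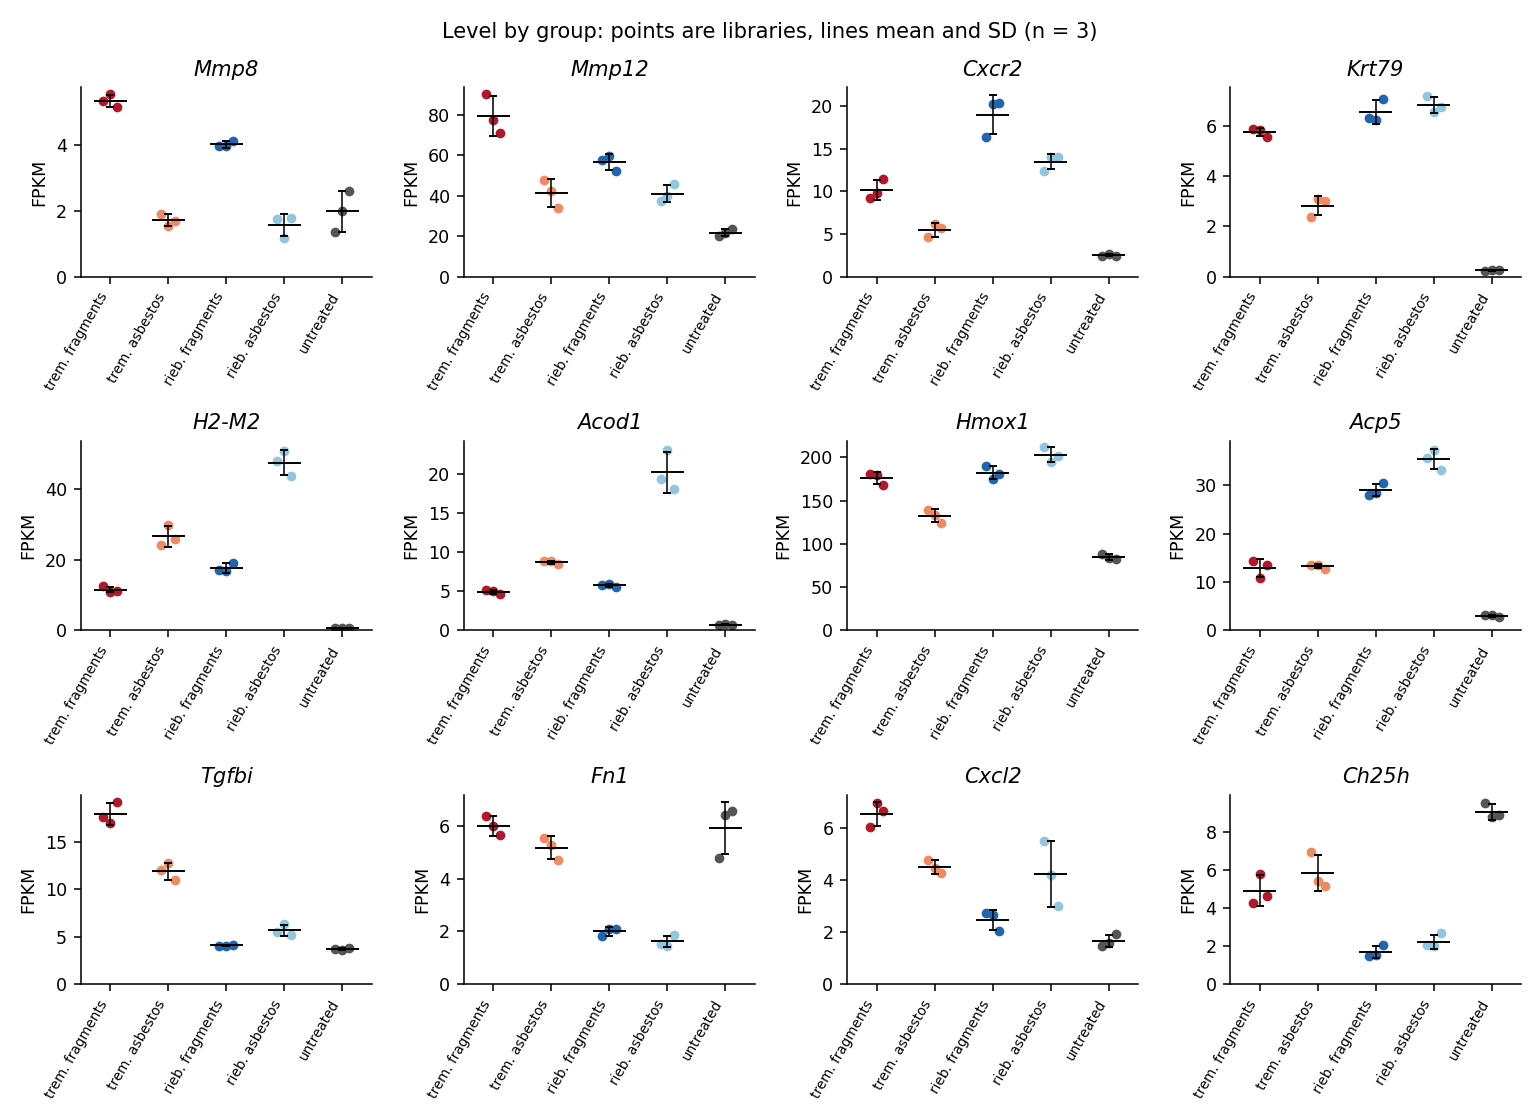
FPKM of 12 genes in the 5 groups, from tremolite (trem.) fragments at the left through tremolite asbestos and the riebeckite (rieb.) fragments and asbestos to untreated cells at the right, with each library as a point and the mean and SD of 3 as lines. Mmp8 is highest after tremolite fragments and near the untreated level after both asbestos types, and Tgfbi is high after both tremolite habits and near the untreated level after riebeckite fragments.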

How the data were processed

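RNA was extracted with TRIzol and columns, enriched for mRNA with oligo(dT) beads and made into libraries with dUTP second strands, per the labels' protocols. The tools named in the submitters' processing notes are cutadapt, HISAT2 and StringTie, with genome build GRCm38. Their versions were not given in the sources used here. Gene and transcript FPKM were computed and deposited by the authors. As FPKM divide by library size, abundant transcripts affect the values of all others. Low values did not fall on whole multiples, so no reads were recovered and no counting error can be given.

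Genes and transcripts were put on the log2(FPKM + 1) scale. A single limma model with a trended prior (version 3.58.1, R 4.3.3) covered the 15 libraries by group. Each comparison was adjusted by the Benjamini-Hochberg method. Transcript shares (in percent, for genes whose summed FPKM averaged 5 or more) were fitted alike. The code was tested on simulated data. Named genes are the 12 largest rises and falls (8 for the other comparisons) among genes past the threshold without overlap of libraries, at 1 FPKM or more in the higher group and without predicted symbols, up to 4 members of each list, and 15 genes of inflammation and stress. Of the last, Il6, Nqo1 and Nos2 were not among the genes tested. Some list members beyond this rule are named and were chosen after their values were seen. Some genes that meet the rule are not reported here. The members and lists were chosen with earlier results of these data known. Promoters came from RefSeq (78.9% of tested genes matched), using the window nearest to the deposited gene start. Between tremolite fragments and untreated cells, deviations of libraries with the same replicate number correlated weakly (0.00931 to 0.0722). For different numbers the correlations were -0.0833 to 0.0553. With 3 libraries a group these values do not settle whether the numbers pair the libraries. Plots used matplotlib 3.10.9 in Python 3.11.15.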

Additional observations from a re-analysis of the deposited data

How the results depend on the processing

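For tremolite fragments against untreated cells, counts of genes stayed within 1.5 times of 1328 higher and 1592 lower under TMM rescaling (1520 and 1349), quantile normalization (1398 and 1585), a pseudocount of 0.1, no filter, a mean of at least 5 FPKM, the 2 groups alone, no trend and sums of transcripts (1026 and 1104). Leaving out 1 library gave 1092 to 1184 higher and 1240 to 1399 lower. A log2 fold change of at least 1 left 68 and 24. Against tremolite asbestos the 2 groups alone gave 12 and 17 in place of 59 and 41, and leaving out 1 library 18 to 54 higher and 13 to 38 lower. Against riebeckite fragments the 2 groups alone gave 318 and 358 in place of 638 and 564, and leaving out 1 library 328 to 522 higher and 376 to 506 lower. Transcripts that fell were 426 to 525 and shares past the threshold 7 to 14 with 1 library left out. With the replicate number as a block 1345 genes were higher and 1661 lower than in untreated cells, 56 and 43 against tremolite asbestos and 707 and 608 against riebeckite fragments, and Irf1 no longer passed against untreated cells (adjusted p = 0.0503). Whether the numbers pair the libraries was not settled. Under sums of transcripts Mdm2 was at -0.34 and Ndufa10 at 0.076, reversed from the gene table, and the cause was not tested. Of 92 list counts 35 moved by over 1.5 times under at least 1 alternative. As depth is unknown, how far it limits weakly expressed genes cannot be stated.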

Other observations

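The genes Tmem216 and Cyb561a3, near each other on chromosome 19, both rose after tremolite fragments. Tmem216, a protein of the ciliary transition zone (chromosome 19, 10533865 to 10556238, GRCm38, minus strand), was at 8.22, 12.8 and 7.04 FPKM after fragments, against 1.70, 2.36 and 2.01 FPKM in untreated cells (1.74, limma adjusted p = 1.45e-04). Cyb561a3 lies further along, on the plus strand (chromosome 19, 10577454 to 10588548). It was at 56.1, 58.4 and 58.3 FPKM after fragments, against 16.8, 16 and 15.1 FPKM in untreated cells. On the opposite strand Tkfc and Tmem138 share 15.2% and 4.88% of its exon bases. Its level was also high after tremolite asbestos (mean 47.3 FPKM), riebeckite fragments (59.9 FPKM) and riebeckite asbestos (68.8 FPKM). Fragment library 2 was the highest for Tmem216. For Tmem216 and Cyb561a3 no fragment library overlapped with an untreated one. Both genes were chosen after their values were seen.

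Some genes differed widely between libraries without passing the test. Gm45717 had 0.000797, 69.9 and 63.0 FPKM after fragments and 0, 0.562 and 0 FPKM in untreated cells (limma adjusted p = 0.0974). It was thus near 0 in 1 fragment library and high in the others. Hist2h2aa1 had 0, 0 and 22 FPKM after fragments and 14.3, 14.0 and 15.3 FPKM in untreated cells (adjusted p = 0.154). It was listed at 0 in 2 of the 3 fragment libraries.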
